A study of Mus musculus with 4 samples.

Results

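The Elav family of RNA-binding proteins was described in the prefrontal cortex of mice that carry a human synaptic acetylcholinesterase (AChE) transgene and of control mice. The family comprised the probe sets with Elavl1, Elavl2, Elavl3 or Elavl4 as their sole gene in the platform annotation, which gave 4 genes of 8251, each with 1 of the 12422 probe sets on the arrays. The members were chosen by their log2 differences between these same pools, which were already known, so all values of its members in this comparison are a description and none carries a test. Total RNA of the prefrontal cortex, pooled from 4 female mice per array, was hybridised to 2 arrays for transgenic mice and 2 arrays for FVB/N control mice. The transgenic mice overexpress the synaptic form of human AChE, the enzyme that breaks down acetylcholine. The sources used here do not give the promoter of the transgene, the strain of the transgenic mice, the age of either group, or whether the pools of a group shared mice. P-values therefore measure only the spread between these pools, which may be technical.

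Elav proteins (also called Hu proteins) bind AU-rich and U-rich stretches of RNA through RNA recognition motifs, and are known to stabilise mRNAs and to influence their splicing, polyadenylation and translation. Elavl2 (HuB), Elavl3 (HuC) and Elavl4 (HuD) are the neuronal members and serve as markers of neurons, with roles in neuronal differentiation, neurite growth and synaptic plasticity. Elavl1 (HuR) is made in nearly all cell types. The mRNA of acetylcholinesterase is itself a reported ligand of Elavl4.

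The sequences before the annotated transcription starts are shown because the neuronal members differed between the groups in the same direction, whereas Elavl1 differed little. They are the 250 bases upstream of the first start listed for each gene by RefSeq (GRCm38.p6, minus strand), at chr4:91399985-91400234 for Elavl2, chr9:22052024-22052273 for Elavl3, chr4:110351912-110352161 for Elavl4, chr8:4325101-4325350 for Elavl1. RefSeq lists 6 starts for Elavl2, 4 for Elavl4 and 1 each for Elavl3 and Elavl1, so the windows of Elavl2 and Elavl4 are 1 of several. Capitals mark the motifs CCAAT and TATAAA, searched on both strands.
Elavl2: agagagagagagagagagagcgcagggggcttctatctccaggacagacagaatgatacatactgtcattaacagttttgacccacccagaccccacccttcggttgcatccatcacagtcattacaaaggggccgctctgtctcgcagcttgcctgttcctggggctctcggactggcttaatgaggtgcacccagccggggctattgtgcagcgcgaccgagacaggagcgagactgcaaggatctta
Elavl3: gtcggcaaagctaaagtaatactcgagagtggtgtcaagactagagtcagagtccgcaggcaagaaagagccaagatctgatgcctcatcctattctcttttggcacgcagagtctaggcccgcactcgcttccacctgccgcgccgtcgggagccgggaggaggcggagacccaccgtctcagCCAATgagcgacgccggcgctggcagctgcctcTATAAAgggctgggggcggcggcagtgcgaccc
Elavl4: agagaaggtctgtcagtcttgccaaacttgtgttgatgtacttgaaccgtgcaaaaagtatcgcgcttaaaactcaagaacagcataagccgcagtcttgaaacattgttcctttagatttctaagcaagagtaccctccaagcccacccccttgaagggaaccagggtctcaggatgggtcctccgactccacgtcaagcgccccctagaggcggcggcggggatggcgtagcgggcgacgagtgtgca
Elavl1: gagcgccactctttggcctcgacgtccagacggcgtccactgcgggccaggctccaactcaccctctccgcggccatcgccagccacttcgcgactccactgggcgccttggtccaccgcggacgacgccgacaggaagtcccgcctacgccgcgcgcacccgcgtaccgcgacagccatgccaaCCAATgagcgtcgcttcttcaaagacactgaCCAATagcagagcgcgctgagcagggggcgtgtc
The Elavl3 window held 1 CCAAT, which began 66 bases before the start, and 1 TATAAA, which began 33 bases before it. The Elavl1 window held CCAAT at 65 and 34 bases before the start and no TATAAA. No match to either motif lay in the windows of Elavl2 and Elavl4. Over 27025 genes, 34.5% of such windows held CCAAT and 13.0% held TATAAA. The E-box CANNTG, which is its own reverse complement in its fixed letters, matched 2 times for Elavl3 and not for the other members, against 66.0% of all windows with a match. GC content was 55.6% for Elavl2, 61.6% for Elavl3, 53.6% for Elavl4 and 67.6% for Elavl1, against a median of 52.0% (quartiles 44.8% and 60.8%). A match is only a match of letters, and the absence of one says nothing about any factor.

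Some facts of the arrays bear on these values. Median intensity was 87.5 and 88.2 in the transgenic pools and 87.4 and 86.6 in the control pools. A floor of 19.7, at the 25th percentile, was set under the intensities before they were put on a log2 scale. Tbr1, a transcription factor of deep-layer cortical neurons, read 1318 and 1514 in transgenic pools and 1399 and 1818 in control pools. It is 1 of 5 cortical marker genes on the arrays, and not all were as alike between the groups. Neurod2 read 621.3 and 626.3 in transgenic pools and 167.2 and 132.1 in control pools. Nrgn went the other way, with 2240 and 1465 in transgenic pools and 2470 and 2441 in control pools. All pools are labelled female, yet Xist, a noncoding RNA of the silenced X in female cells, read 178.5 and 228 in transgenic pools and 29.3 and 21.1 in control pools, where it lay near the floor. The Xist reading of the control pools thus goes against their label, and both control pools share this. Elavl3 and Kcna1 also lay under the floor in both control pools, and Elavl4 lay near it. Among genes with patterns like those of the neuronal members, the difference was absent or far smaller at another probe set of Cd47, Pik3ca, Chst2 and Rab6a. It was shared, wholly or in part, at Nfib, Mapt and Sox4. The sources used here give no version, lot or scan of the arrays for either group, so in every value below an array or batch effect that differs between the groups and the transgene cannot be told apart. Xist's part in the differences of the Elav genes was not tested.

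The 3 neuronal Elav genes read higher in both transgenic pools than in either control pool, by 1.70 for Elavl2, 3.47 for Elavl4 and at least 4.63 for Elavl3 on the log2 scale, while Elavl1 differed by 0.24. The Elavl3 value is a bound, since its control signal lay below the floor. The transgenic values lay above the control values without overlap for 4 of 4 members, Elavl1 included, as they did for 23.8% of the 7453 probe sets bright enough to be tested, with 29.9% lower without overlap. No replication outside these 4 arrays was used.

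Elavl3, the HuC gene that is often taken as a marker of differentiated neurons, read 487.4 and 489.4 at probe set 92239_at in the transgenic pools, against 6.1 and 4.7 in the control pools. The transgenic pools differed from each other by 0.01 on the log2 scale, and both control pools lay under the floor, where values have no order. With the control arrays set to the floor, the difference was 4.63 on the log2 scale, so the transgenic signal was at least 24.8-fold higher. The size follows the floor: it was 3.26 with a floor at the 40th percentile and 6.38 with one at the 10th. In the same control pools 12 neuron marker genes outside the family, described below, summed to 32358 and 31558. Whether the low control reading of Elavl3 belongs to the transcript or to this 1 probe set was not tested.

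Elavl4, the HuD gene, which is linked to neurite outgrowth and to stabilisation of the growth-cone mRNA Gap43, read 305.7 and 315.5 at 92361_at in the transgenic pools, against 30.8 and 25.5 in the control pools. Both control values lay above the floor and well under the transgenic ones. The difference was 3.47 ± 0.24 (SE from the fit across all probe sets) on the log2 scale, or 11.1-fold. It was 2.61 with the floor at the 40th percentile and 2.89 with log2(value + 16) in place of a floor.

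Elavl2, the HuB gene, the member known also from germ cells, read 293.9 and 385 at 92317_at in the transgenic pools and 117.8 and 91.6 in the control pools. The pools of each group were less alike than for Elavl4, differing by 0.39 in the transgenic group and 0.36 in the control group on the log2 scale. The difference between the groups was 1.70 ± 0.21 (SE) on the log2 scale, or 3.24-fold, with 144 tested probe sets (1.93%) further up. As the member was chosen by this difference, these values are a description only. The value lay between 1.50 and 1.89 when any 1 array was left out.

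Elavl1, the widely expressed HuR gene, read 182.4 and 226.3 at 94001_at in the transgenic pools and 179.5 and 165.8 in the control pools. The lower transgenic pool lay just above the higher control pool. The difference of 0.24 ± 0.19 (SE) on the log2 scale was smaller than the 0.31 between the transgenic pools, and 1665 tested probe sets (22.3%) had a larger rise. Falls are not in that count, and the lower quartile of the log2 difference over all tested probe sets was -0.26. The Elavl1 difference ranged from 0.08 without transgenic pool 2 to 0.39 without transgenic pool 1.

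**Figure D1:**
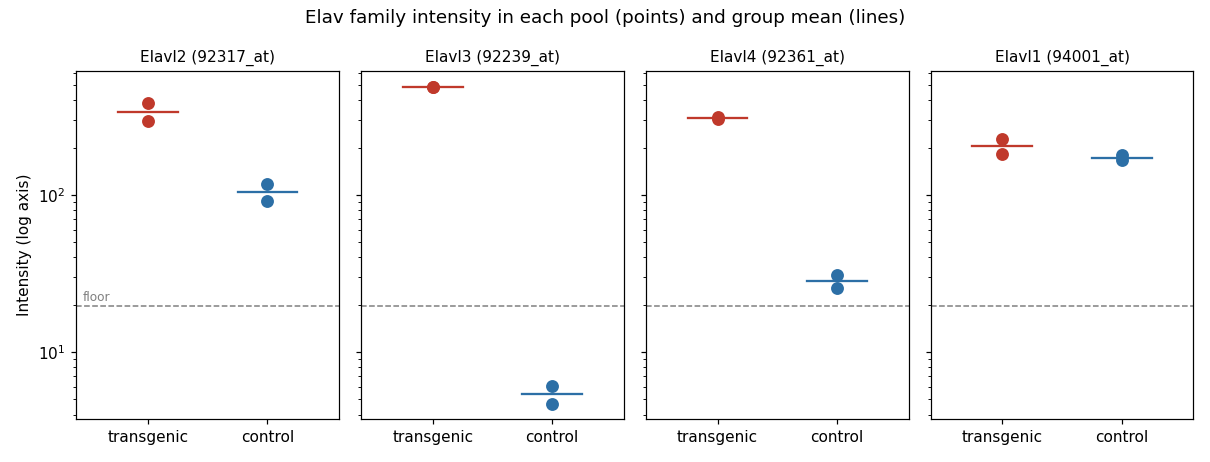
Intensity (log axis) of the 4 Elav probe sets in each pool, transgenic in red and control in blue, with lines at the group means and a dashed line at the floor of 19.7. Both Elavl3 control points lie under the floor, at 6.1 and 4.7, and the Elavl1 points of the groups nearly touch. Levels are not comparable between panels, since each probe set has its own response.

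Set against Elavl1, the log2 difference between groups was larger by 3.23 for Elavl4 and 1.46 for Elavl2, and by at least 4.40 for Elavl3, whose control arrays were set to the floor. These values are a description, since the contrast of the neuronal members with Elavl1 was itself part of how the family was defined. Each gene is read by 1 probe set, so no second probe set shows whether the difference holds elsewhere in the transcript. All 4 probe sets passed the filter on dim probe sets, which required a mean log2 intensity over the 4 arrays above 5.63. Elavl3 and Elavl4 passed it through their transgenic arrays, as their control means of 4.30 and 4.81 lay under it. Elavl2 and Elavl1 would also have passed on the control arrays alone, at 6.70 and 7.43.

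**Figure D2:**
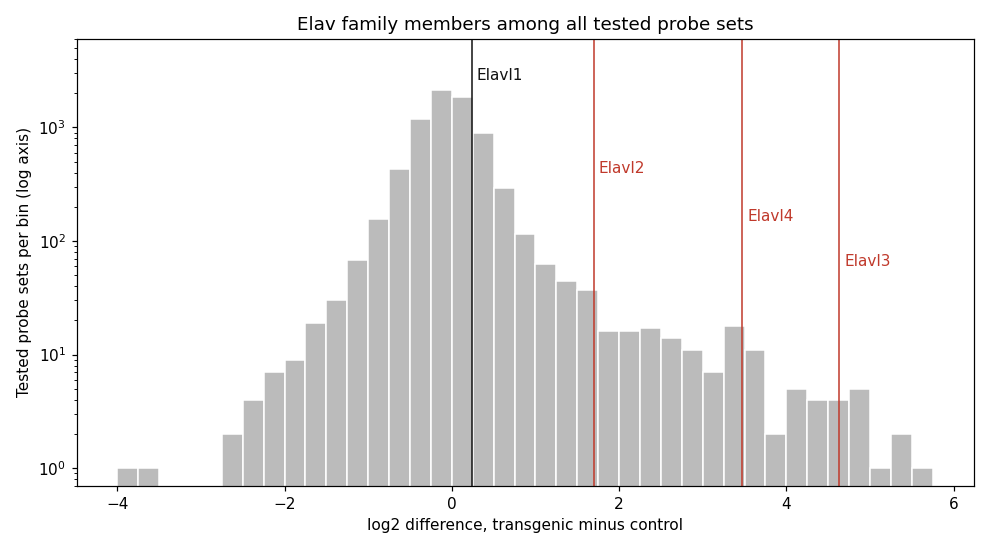
Number of tested probe sets (log axis) by log2 difference, transgenic minus control, in bins of width 0.25, with a line at each Elav member. Elavl1 lies in the body of the distribution at 0.24, and Elavl2, Elavl4 and Elavl3 lie in its upper tail at 1.70, 3.47 and 4.63, the last a bound set by the floor.

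Neuron markers outside the Elav family were called lower at 2 probe sets and higher at 0. Of 14 tested probe sets of 12 neuron marker genes, 0 were higher and 2 (14.3%) were lower in the transgenic pools (limma, Benjamini-Hochberg adjusted p under 0.05). The shares over all 7453 tested probe sets were 5.46% higher and 4.56% lower. With an unadjusted limma p under 0.05, 1 was higher and 4 were lower. The higher 1 was Gad1, which read 3036 and 3199 in the transgenic pools and 2409 and 2549 in the control pools (log2 difference 0.33 ± 0.11, limma adjusted p = 0.0846). That unadjusted threshold was met by 1811 of all 7453 tested probe sets, both directions together. Snap25, a SNARE protein of synaptic vesicle release, read 6878 and 7244 in the transgenic pools and 9424 and 8868 in the control pools (log2 difference -0.37 ± 0.09, limma adjusted p = 0.0359). Uchl1, an abundant neuronal deubiquitinase, fell by 0.40 ± 0.10 on the log2 scale (limma adjusted p = 0.0352). Leaving out any 1 array ended both calls, with adjusted p of 0.0936 to 0.246 for Snap25 and 0.0803 to 0.180 for Uchl1 (over all alternatives 0.0200 to 0.417 and 0.0236 to 0.214). Summed over the 12 genes, each at its brightest probe set, neuron markers gave 26660 and 28597 in the transgenic pools and 32358 and 31558 in the control pools, and none was at the floor on all arrays. Such a sum is weighted to the brightest probe sets, that of Snap25 among them, and does not show that each gene fell. In bulk tissue, fewer cells of a type and less RNA per cell cannot be told apart.

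Markers of migrating neuroblasts, in which neuronal Elav genes are also active, had 4 of 9 tested probe sets higher (44.4%, against 5.46% of all tested) and 0 lower (against 4.56%, and 0 also at an unadjusted p under 0.05). These were Sox4 at both probe sets (log2 differences 1.59 and 0.99), Sox11 (1.43) and Cd24a (0.76), with limma adjusted p between 0.00125 and 0.0192. Without transgenic pool 1 the adjusted p was 0.0512 for the second Sox4 probe set, 0.0873 for Sox11 and 0.122 for Cd24a, and without transgenic pool 2 it was 0.0644 and 0.130 for Sox4 and 0.0913 for Cd24a (over all alternatives 1.26e-07 to 0.258 for these 4). Doublecortin (Dcx), the microtubule protein that defines this stage, read 293.2 and 279.3 in transgenic pools and 332.4 and 169.1 in control pools, which overlapped. Tested probe sets that did not pass went both ways, with log2 differences of 0.59 (Dlx1), 0.27 (Dcx), -0.09 (Stmn1), -0.21 (Nnat) and -0.30 (Dlx2). The summed level of the 10 genes was 8344 and 8702 in the transgenic pools and 8768 and 7635 in the control pools. Most of that sum came from Stmn1 alone, which read 5695 and 5908 in the transgenic pools and 6574 and 5812 in the control pools. Of 5 tested probe sets for cortical projection neurons, 1 was higher, that of Neurod2 (log2 difference 2.07), and 0 were lower, with 1 lower at an unadjusted p under 0.05. Read against the same 5.46% and 4.56%, markers of other cells gave 2 higher and 1 lower of 11 tested probe sets for astrocytes, 0 and 1 of 10 for oligodendrocytes, 0 and 1 of 7 for microglia and 2 and 0 of 5 for endothelium. The higher probe sets were both of Aqp4 in astrocytes and both of Flt1 in endothelium, and 2 of 2 for Aqp4 and 1 of 2 for Flt1 were bright enough for the test only through the transgenic arrays. For striatum, a neighbouring region, 0 of 4 passed in limma, also at an unadjusted p under 0.05. Pools of the same group differed there, so this count does not show an even striatal signal. Penk at 94516_f_at read 3710 and 2395 in the transgenic pools and 1779 and 3622 in the control pools. Tac1 read 342.2 and 302.4 in the transgenic pools and 157.8 and 471.9 in the control pools. The part of any cell type in the Elav values was not tested.

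Genes tied to Elav function were read from 5 lists drawn up from the literature, with earlier results of these data known. Over all 7453 tested probe sets, 5.46% were higher and 4.56% lower in the transgenic pools, with a median log2 difference of -0.03. In the lists together, 21 probe sets of 17 genes passed. Of these, 3 (Kcna1, Camk2a and Ago2) were bright enough for the test only through the group in which they were high, so their calls carry no weight and no p is given for them. Without the filter on dim probe sets 2 of these 21 still did, both of Mapt, and without transgenic pool 1 or 2 there were 13 and 11.

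mRNAs reported as ligands or targets of neuronal Elav proteins moved both ways. Of 16 tested probe sets of 13 genes, 6 were higher (37.5%), 2 were lower (12.5%) and 8 did not pass, with a median log2 difference of 0.31. These counts and shares include 1 higher (Kcna1) and 1 lower (Camk2a) probe set that only 1 group let into the test, whose calls carry no weight. Mapt, which encodes the microtubule protein tau, made up 3 of the 6 and Kcna1 1 of them, so the higher probe sets came from 4 genes. At 102431_at Mapt read 3389 and 3416 in the transgenic pools and 132.4 and 116.3 in the control pools, and its other probe sets differed by 4.34 and 2.32 on the log2 scale.

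Kcna1, a voltage-gated potassium channel whose dendritic translation is reported to involve Elavl4, read 414.8 and 622.3 in the transgenic pools against 7.5 and 6.9 in the control pools, both under the floor, which makes it at least 25.8-fold higher. Satb1, a chromatin organiser of developing neurons, rose by 1.87 ± 0.19 on the log2 scale (limma adjusted p = 0.000154). Bdnf, a neurotrophin whose long transcript is a reported Elavl4 target, read 771.4 and 883.7 in the transgenic pools and 317.4 and 309.5 in the control pools (log2 difference 1.40 ± 0.14, limma adjusted p = 0.000179). For each of these genes both transgenic pools lay above both control pools, as was so for 23.8% of all tested probe sets. Since the genes were named for being higher, this adds no support.

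The lower probe sets in this list were those of Ache and Camk2a. Ache read 365.3 and 355.6 in the transgenic pools and 599.5 and 621.9 in the control pools (log2 difference -0.76 ± 0.14, limma adjusted p = 0.00768). Elavl4 and the signal of the Ache probe set thus differed in opposite directions. The sources used here do not say whether the Ache probe set also reads the human transcript. Camk2a, a calmodulin-dependent kinase of the postsynaptic density, read 31.2 and 62.9 in the transgenic pools and 136.6 and 121 in the control pools (log2 difference -1.54 ± 0.35). The adjusted p of Ache was 0.0608 without transgenic pool 1 and 0.0723 without transgenic pool 2, and ranged from 0.00579 to 0.0723 over all alternatives.

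Several classical targets did not pass. Gap43, the growth-cone protein whose mRNA is the best known ligand of Elavl4, read 1642 and 2072 in the transgenic pools and 1388 and 1774 in the control pools (log2 difference 0.23 ± 0.16, limma adjusted p = 0.416). Marcks, a membrane-bound substrate of protein kinase C, had 0.40 ± 0.13 (adjusted p = 0.0850), and the cell cycle inhibitor Cdkn1a had 0.57 ± 0.25 at its probe set of smallest p (adjusted p = 0.202). App, the amyloid precursor, had -0.18 ± 0.11 (adjusted p = 0.352). The Gap43 pools of the groups overlapped.

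Of mRNAs reported as targets of Elavl1, 0 of 12 tested probe sets were higher and 2 were lower, with a median log2 difference of 0.29. At an unadjusted p under 0.05 in limma, 4 were higher and 2 lower, against 1811 of all 7453 tested probe sets in both directions together. Both lower probe sets belong to the beta-actin gene Actb, with log2 differences of -2.60 ± 0.14 and -1.18 ± 0.20 (limma adjusted p = 2.69e-06 and 0.00508). The smaller of these had an adjusted p of 0.0549 without transgenic pool 1 and 0.131 without transgenic pool 2 (range over the alternatives 1.22e-08 to 0.290). Ccnd1, the cyclin of early cell cycle entry, read 137.8 and 133.4 in the transgenic pools and 87.3 and 33.3 in the control pools at 94231_at (limma adjusted p = 0.0709). Fos, an immediate early transcription factor, had a log2 difference of 0.33 ± 0.12 (adjusted p = 0.123).

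Proteins that bind, modify or carry Elav proteins gave 3 higher and 1 lower of 23 tested probe sets (13.0% and 4.35%), with a median log2 difference of 0.01. The higher count and share include Ago2, whose call carries no weight. Set, a nuclear protein that binds Elavl1, read 797 and 812.6 in the transgenic pools and 231.7 and 285.5 in the control pools at 94456_at (log2 difference 1.65 ± 0.16, limma adjusted p = 0.000107). Set at 98550_at had 0.04 ± 0.15, which did not pass. Anp32a, another acidic nuclear ligand of Elavl1, split likewise, with 0.45 ± 0.12 at 104390_at (limma adjusted p = 0.0481) and -0.07 ± 0.16 at 93372_at.

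Ago2, the microRNA effector that can act with or against Elavl1 on the same mRNA, read 156.8 and 196.5 in the transgenic pools and 43.1 and 50.4 in the control pools (log2 difference 1.91 ± 0.26). Mapk14, the p38 kinase that phosphorylates Elavl1, fell by 0.49 ± 0.13 on the log2 scale (limma adjusted p = 0.0394). Leaving out any 1 array ended the calls of Mapk14 and Anp32a, with adjusted p of 0.0631 to 0.171 and 0.0685 to 0.221 (over all alternatives 0.0356 to 0.171 and 0.0431 to 0.221). Anp32a passed under 4 of its 14 alternatives. Parp1, which modifies Elavl1, had 0.67 ± 0.19 (adjusted p = 0.0531), and the nuclear exporter Xpo1 had 0.74 ± 0.25 (adjusted p = 0.105).

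Other proteins that bind AU-rich or U-rich elements gave 3 higher and 1 lower of 17 tested probe sets (17.6% and 5.88%), with a median log2 difference of 0.32. Tia1, a stress granule protein that represses translation, read 224.2 and 272.7 in the transgenic pools and 72.8 and 70.3 in the control pools (log2 difference 1.79 ± 0.21, limma adjusted p = 0.000452). Its paralog Tial1 differed the other way, with 132.2 and 149.6 in the transgenic pools and 245.7 and 212.9 in the control pools (log2 difference -0.70 ± 0.19, limma adjusted p = 0.0454). Zfp36l1, which promotes decay of AU-rich mRNAs, rose by 0.84 ± 0.18 and Hnrnpc by 0.91 ± 0.22 on the log2 scale (limma adjusted p = 0.0188 and 0.0311). Nucleolin (Ncl) had 0.38 ± 0.12 (adjusted p = 0.0846) and the translational repressor Pum2 had 0.28 ± 0.11 (adjusted p = 0.153).

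Without transgenic pool 1 or 2 the adjusted p was 0.176 and 0.132 for Tial1, 0.0661 and 0.154 for Zfp36l1, and 0.159 and 0.253 for Hnrnpc. Without control pool 1 it was 0.235 for Tial1 and 0.126 for Hnrnpc, and without control pool 2 it was 0.0584 for Tial1. Over all alternatives it ranged from 0.0376 to 0.235 for Tial1, 0.012 to 0.190 for Zfp36l1 and 0.000129 to 0.356 for Hnrnpc.

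Other RNA-binding proteins of neurons and glia gave 3 higher and 0 lower of 17 tested probe sets (17.6% higher, and 0 lower also at an unadjusted p under 0.05 in limma), with a median log2 difference of 0.20. Qk, the quaking protein that governs myelin mRNAs, rose at both tested probe sets, by 0.94 ± 0.15 and 0.72 ± 0.18 on the log2 scale (limma adjusted p = 0.00296 and 0.0305). Pcbp2, which binds C-rich stretches, read 1870 and 2064 in the transgenic pools and 1209 and 1201 in the control pools (log2 difference 0.71 ± 0.12, limma adjusted p = 0.00437). Without transgenic pool 2 none of the 3 passed, with adjusted p of 0.0644 and 0.206 for Qk and 0.0594 for Pcbp2 (ranges over the alternatives 0.000213 to 0.124, 0.00334 to 0.337 and 0.00328 to 0.109). The splicing regulators Celf4 and Rbfox2 had 0.33 ± 0.14 and -0.68 ± 0.31 (adjusted p = 0.187 and 0.210).

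**Figure D3:**
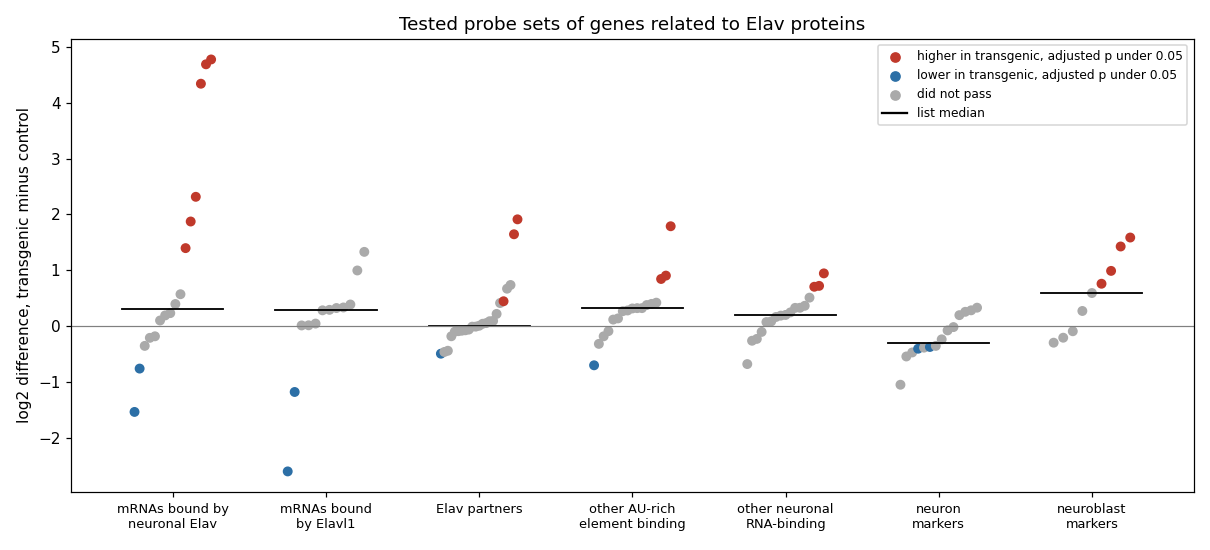
Log2 difference, transgenic minus control, of each tested probe set in the 5 lists on Elav biology and in 2 marker lists, with a black line at each list median, red for higher and blue for lower at an adjusted p under 0.05, and grey for the rest. The neuronal Elav target list reaches from -1.54 (Camk2a) to 4.78 (Mapt), while neuron markers have a median of -0.30. Kcna1, Camk2a and Ago2 are coloured like the others, but their calls carry no weight, since only 1 group let them into the test.

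The genes whose pattern over the 4 arrays was nearest to each member were found by the distance between log2 values centred on each probe set's mean. Values under the floor enter at the floor, which concerns Elavl3 and Nfib. The genes were selected for that likeness, so their values carry no test. Nearest to Elavl3 were Cd47, a surface inhibitor of phagocytosis, then Mapt and the transcription factor Nfib, at distances of 0.12, 0.20 and 0.21. Nearest to Elavl4 were Pik3ca, a catalytic subunit of phosphoinositide 3-kinase, the neural adhesion molecule Chl1 and the Mediator subunit Med1, at 0.08, 0.15 and 0.18. Nearest to Elavl2 were Sox4, the sulfotransferase Chst2 and the Golgi GTPase Rab6a, at 0.13, 0.22 and 0.24. Nearest to Elavl1 were Ap3s1, Ccz1 and Znrf2, at 0.02, 0.03 and 0.04.

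Unlike the Elav genes, several of these were read by another probe set. At Cd47 the other probe set, 95020_at, read 706.4 and 835.2 in the transgenic pools and 850.1 and 816.2 in the control pools, a log2 difference of -0.12, against 4.75 at the probe set nearest to Elavl3. Pik3ca had 0.33 at 92452_at against 3.45 at 104461_at, Chst2 had 0.21 at 102639_at against 1.85 at 97110_at, and Rab6a had -0.21 at 97222_at against 1.50 at 98927_at. In contrast, Nfib had 4.84 at 99440_at and at least 4.84 at 160859_s_at, where both control arrays lay under the floor. Mapt had 2.32 at 102743_at against 4.78 at 102431_at, and 4.34 at 102742_g_at, whose source sequence is also that of 102431_at. Sox4 had 0.99 at 101430_at against 1.59 at 160109_at, the same direction with a smaller size.

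**Figure D4:**
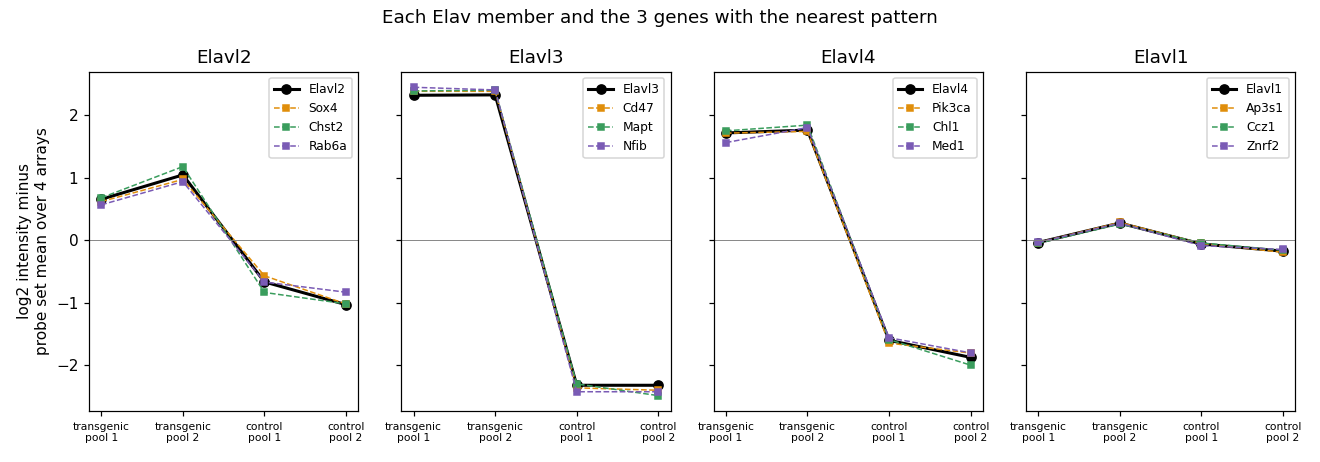
Log2 intensity minus the probe set's mean over 4 arrays for each Elav member (black) and the 3 genes nearest to it (colours), by pool. Lines only join the values of 1 probe set. The step between the groups is steep for Elavl3 and Elavl4, smaller for Elavl2 and nearly flat for Elavl1.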

How the data were processed

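Each of the 4 arrays gave 1 linear intensity per probe set in the authors' deposited table. No header or label names the unit, which was read from the values, and the sources used here do not say how the intensities were summarised and scaled. Of 12488 probe sets, 66 controls were left out. Symbols of the platform annotation were updated through gene identifiers (RefSeq, GRCm38.p6) for 10817 of 10833 probe sets with a single gene. Values were floored at the 25th percentile and log2-transformed. The 7453 probe sets with a mean above the 40th percentile were compared by limma (version 3.58.1, R 4.3.3; lmFit, eBayes with an intensity trend, two-sided, Benjamini-Hochberg over all tested, threshold 0.05). In all, 747 probe sets passed (10.0%). The number of arrays limits the precision. Groups came from the sample titles. On data simulated from these arrays (7453 probe sets, 200 of them changed), 79.0% of log2 changes of 1 and 100% of those of 2 were recovered, with 16 false calls. The simulated noise was independent, with the spread of the fit itself, and held no floor and no array effect between groups. It therefore does not give the accuracy of the calls in the real data.

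The members and lists were chosen with earlier results of these data known. Named were every member, the 3 nearest genes of each, every list gene that passed and the 2 of smallest p that did not; Gap43, App, the markers and Xist were added after their values were seen.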

Additional observations from a re-analysis of the deposited data

How the results depend on the processing

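Log2 differences of the 4 Elav genes kept their sign under all 10 processing alternatives and with any 1 array left out. With the floor at the 40th percentile Elavl3 had 3.26 and Elavl4 2.61, with the floor at the 10th percentile Elavl3 had 6.38, and with log2(value + 16) Elavl4 had 2.89. With 1 array left out, Elavl2 ranged from 1.50 to 1.89, Elavl4 from 3.33 to 3.61 and Elavl1 from 0.08 to 0.39. For Elavl3 the range of 4.63 to 4.64 says nothing of stability, since both control arrays stand at the floor. The counts of called probe sets moved more. Without the filter on dim probe sets 34 were higher and 14 lower in all, against 407 and 340; the neuronal Elav targets then had 2 higher and 0 lower, and each of the other lists that had calls had 0. Without the intensity trend the totals were 272 higher and 123 lower, with 1 lower in each target list, 0 lower among partners, 1 higher and 0 lower among other AU-rich element binding proteins and 1 higher among other RNA-binding proteins. With the filter at the 60th percentile 1 neuronal Elav target was lower, and with the floor at the 40th percentile 0 AU-rich element binding proteins were. With 1 array left out, the count over all tested probe sets ranged from 180 to 435 higher and from 102 to 314 lower. In the lists it then ranged from 6 to 6 higher and 0 to 2 lower for neuronal Elav targets, 0 to 1 and 1 to 2 for Elavl1 targets, 2 to 3 and 0 to 0 for partners, 1 to 3 and 0 to 0 for AU-rich element binding proteins, and 0 to 3 and 0 to 1 for other RNA-binding proteins. The list counts in this paragraph include Kcna1, Camk2a and Ago2 wherever they passed, although their calls carry no weight. The causes of the moves in these counts were not tested. The filter does change which probe sets are tested, and a left-out array lowers the number of arrays. Same-numbered pools shared only a number: their deviations correlated at 0.0555 over probe sets. With the replicate number as a block 466 were higher and 426 lower, all 21 list calls passed, 1 Elavl1 target was higher and 1 other RNA-binding protein was lower.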

Other observations

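Some probe sets of genes on the lists were too dim for the test, and the following are named after their values were seen. Homer1, a scaffold of excitatory synapses whose mRNA is a reported Elavl4 ligand, read 58.3 and 101.4 at 104499_at in the transgenic pools and 23.2 and 17 in the control pools, while its other probe set, 104498_at, overlapped between the groups. Rbfox2 read 45.8 and 64.5 at 104197_at in the transgenic pools and 23.7 and 25.8 in the control pools, the opposite direction to its tested probe set. Ptbp2, a splicing repressor of developing neurons, read 41 and 56.2 at 160374_r_at in the transgenic pools and 31 and 24.7 in the control pools. Its brighter, tested probe set, 94088_at, read 306.1 and 315 in the transgenic pools and 280.4 and 244.5 in the control pools. There the log2 difference was 0.25 and did not pass (limma adjusted p = 0.403). Vegfa, a vascular growth factor and reported Elavl1 target, read 29 and 40.1 in the transgenic pools and 71.3 and 65.1 in the control pools. Map1b, a microtubule protein that binds Elavl4, read 29.9 and 35.7 in the transgenic pools and 44.3 and 66.7 in the control pools. Apart from 94088_at, the values in this paragraph were not tested.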
